A study of Mus musculus with 4 samples.

Results

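Loss of Txnip was examined in skeletal muscle of obese mice by setting the array of ob/ob mice lacking Txnip against the array of ob/ob mice with the gene, 1 array a side. A gene entered the comparison when the scanner software marked it as well above background on both arrays, which held for 15461 of the 27597 genes on the array. The muscle came from 10-week-old mice fed ad libitum, and its RNA was hybridised to 1-colour Agilent arrays that carry 41174 probes. Besides the compared pair, ob/ob Txnip-null (labelled ob/ob TBP-2-/-) and ob/ob, the study holds a WT array and a Txnip-null (TBP-2-/-) array, so each of the 4 genotypes had 1 array. Both samples of the comparison carried the ob mutation on both alleles, and by their labels they differed in Txnip alone. Left unstated by the labels are the number of mice behind each RNA sample, the muscle used, the strain and sex, and the stretch of Txnip that was deleted. The genotype entry of the ob/ob sample has an extra letter, and its title was used.

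Txnip is a member of the arrestin family that binds thioredoxin and holds back the uptake of glucose, and its gene is switched on by glucose through MondoA (Mlxip) and its partner Mlx. The ob mutation removes functional leptin, the satiety hormone of fat cells, and ob/ob mice overeat, become obese and resist insulin. Skeletal muscle is the main site of insulin-driven glucose disposal, and it also burns fatty acids, ketone bodies and branched-chain amino acids.

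Signals below are the background-subtracted processed signals of each array, and a difference is log2 of the ob/ob Txnip-null signal minus log2 of the ob/ob signal after each array was scaled at its 75th percentile. The error after ± is a standard error from the scanner software's error model. It reflects technical error within an array, leaves out variation among mice, and with 1 array a side no difference has a replicate check, so higher and lower describe these arrays. The 75th percentile lay between 273 and 321 on the 4 arrays, between 22675 and 24221 probes were well above background, and no spot was saturated. Muscle transcripts were among the brightest on every array: Ckm (muscle creatine kinase) gave 290343, 260430, 266057 and 242488 and Acta1 (skeletal alpha-actin) 412975, 389343, 405345 and 377384 on the WT and Txnip-null arrays and then the ob/ob arrays with and without Txnip. Scaling to the spike-in RNA in place of the 75th percentile moved the difference of the median gene by -0.51, so a single-gene difference between 0 and 0.51 changes side under that scaling, and gene groups are given relative to the median of all genes.

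With Txnip absent, 287 genes were 2-fold or more higher and 126 were 2-fold or more lower, which are 1.86% and 0.815% of the genes measured. Under spike-in scaling the split was 80 higher and 845 lower. The median difference of all genes was 0.03, the middle 90% of genes lay between -0.51 and 0.66, and 62.3% differed by less than 1.2-fold. Beyond 4-fold there were 37 higher and 17 lower genes, and beyond 8-fold 6 and 3. Dim genes crossed 2-fold more often: 4.40% of genes with a mean signal under 100, against 2.31%, 1.34% and 1.79% in the next 3 ranges of signal, split at 1000 and 10000. Of the called genes, 91 higher and 45 lower genes lay beyond 2-fold by at least 2 standard errors. Close to the threshold, Htra4 (1.0 ± 0.21) and Id3 (-1.01) were counted while Kcnmb4 (0.9994) and Bdnf (-0.9965) were not.

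**Figure D1:**
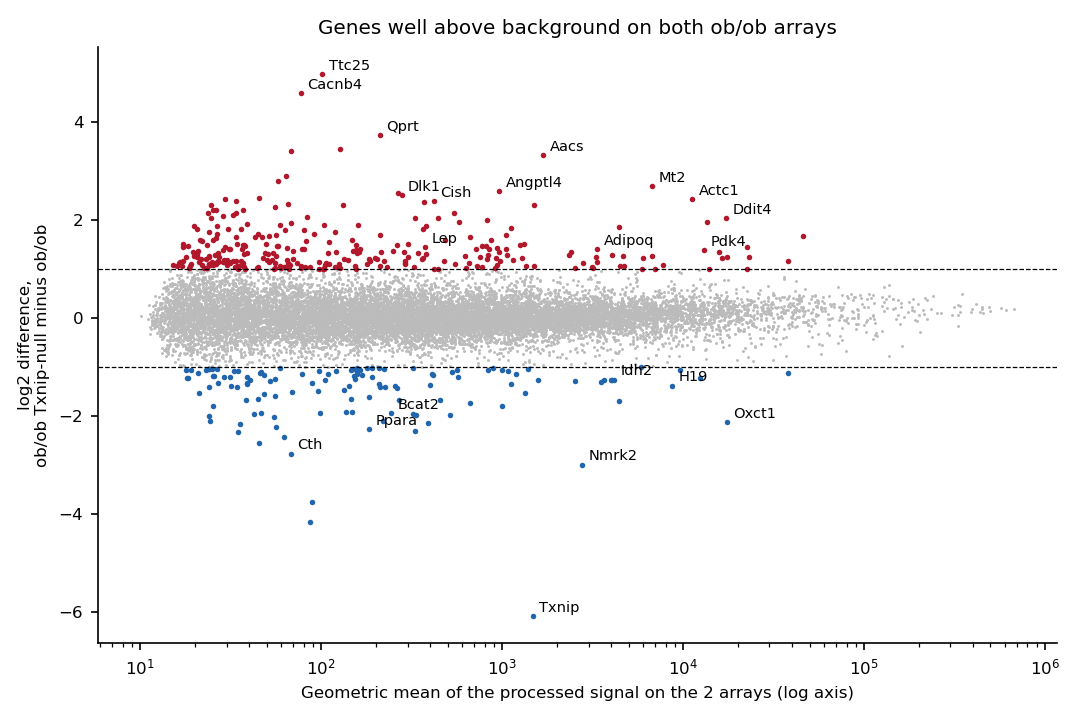
Difference of each gene between the ob/ob Txnip-null and ob/ob arrays (log2, vertical) against the geometric mean of its processed signal on both arrays (log axis). Each point is 1 of the 15461 genes; red points are the 287 genes 2-fold or more higher, blue points the 126 genes 2-fold or more lower, and dashed lines mark 2-fold. Txnip is the lowest point, at -6.08, and called genes thin out toward high signals.

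The Txnip probe read 13209 in WT and 868 in Txnip-null muscle, and 13142 and 166 in ob/ob muscle with and without Txnip. Both arrays of mice with the gene were nearly equal and both arrays without it were far below, as their labels require. The probe covers chr3:96646629-96646688 on mm8, the build of the array annotation, and its place relative to the deleted stretch is unknown. Its residual on the ob/ob Txnip-null array was still well above background, and the difference was -6.08 ± 0.20, or 67.5-fold lower. The Txnip locus had no cluster of called genes around it: of 121 genes measured within 5 megabases of the probe, 1 was called, the serine synthesis gene Phgdh, which is 0.826% against 2.66% of all genes with a position.

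Arrdc4, the nearest relative of Txnip among the arrestin-domain genes and also a MondoA target, differed in the opposite direction. Its signals were 160, 383, 258 and 513 on the WT and Txnip-null arrays and then the ob/ob arrays with and without Txnip, so each array without Txnip stood above its partner with Txnip. The difference was 1.22 ± 0.20 (2.33-fold higher), and its second probe gave 1.68. Of 5 measured genes of the family, Txnip and Arrdc4 passed 2-fold; Arrdc3, an adaptor for ubiquitin ligases, was at 0.67, Arrdc1 at 0.28 and Arrdc2 at 0.13. Mlxip itself, which encodes MondoA, was at 0.68 and Mlx at -0.53.

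The promoters of both genes are shown because they are relatives with opposite differences. They are the 250 bases before the RefSeq start on GRCm38.p6, read 5′ to 3′ on the gene's strand, at chr3:96557707-96557956 (plus strand) for Txnip and chr7:68749239-68749488 (minus strand) for Arrdc4. Capitals mark an exact match, on either strand, to CACGTG, the E-box found in carbohydrate response elements, in Arrdc4, and to TGCGCNC, a metal response element core, in Txnip.
Txnip promoter: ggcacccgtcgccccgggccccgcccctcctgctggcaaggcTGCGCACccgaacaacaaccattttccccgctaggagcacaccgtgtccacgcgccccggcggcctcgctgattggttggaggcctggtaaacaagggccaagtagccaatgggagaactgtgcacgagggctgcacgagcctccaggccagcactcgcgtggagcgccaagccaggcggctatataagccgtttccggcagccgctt
Arrdc4 promoter: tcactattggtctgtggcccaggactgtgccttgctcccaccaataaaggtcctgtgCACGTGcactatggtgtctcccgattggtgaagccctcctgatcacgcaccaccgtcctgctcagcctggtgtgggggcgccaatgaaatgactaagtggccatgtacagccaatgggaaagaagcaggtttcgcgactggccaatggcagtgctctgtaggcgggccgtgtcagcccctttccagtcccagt
The E-box begins 193 bases before the start of Arrdc4, and the exact CACGTG letters do not occur in the 250 bases of Txnip. The search allowed no mismatch, so letters 1 base away, such as CACGAG in the Txnip window, stayed in lower case. It therefore does not say whether Txnip has a carbohydrate response element. Of 32851 RefSeq promoters of this length, 6.02% held CACGTG and 12.5% held TGCGCNC. The ERR element TCAAGGTCA (0.387% of promoters) and the PPAR element, a direct repeat with 1 base between its copies (0.0335%), were also searched, as were the others, in Pdk4, Nmrk2, Bcat2, Oxct1, Acot2, Idh2 and Qprt, and none of these windows held any of the motifs; Angptl4 had no entry in the promoter table. A match is a description of the sequence and not a binding site.

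The first enzymes of branched-chain amino acid breakdown formed the group with the lowest levels in the absence of Txnip. Leucine, isoleucine and valine are first transaminated by Bcat2 in the mitochondria and then decarboxylated by a dehydrogenase complex of Bckdha, Bckdhb, Dbt and Dld, which the phosphatase Ppm1k switches on and the kinase Bckdk switches off. All 7 measured genes of this step lay below the median of all genes, 4 of them 2-fold or more lower, and the group median relative to all genes was -1.63 (-1.38 for the lean pair, Txnip-null minus WT).

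Bcat2 read 465 in WT and 140 in Txnip-null muscle, and 516 and 115 in ob/ob muscle with and without Txnip. Its difference was -1.93 ± 0.21 (3.81-fold lower), with 3 probes between -1.95 and -0.62. Ppm1k, at 425, 170, 489 and 97.6 in the same order, differed by -2.09 ± 0.21. For both genes the arrays with Txnip were alike and both arrays without it were low. Bckdhb (1808, 573, 2029 and 496) differed by -1.80 ± 0.20 and Dbt (348, 118, 346 and 97.1) by -1.60 ± 0.21. Bckdha was at -0.77, Dld at -0.28 and Bckdk at -0.20, so the phosphatase was further below than the kinase it opposes. The cytosolic aminotransferase Bcat1 was well above background on the ob/ob Txnip-null array alone of the pair, at 25.8, and was at least 2.31-fold higher there.

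The later enzymes of the 3 amino acids were lower by less. Of 15 measured genes, 14 lay below the median of all genes, 3 were 2-fold or more lower, and the relative median was -0.69 (-0.49 for the lean pair). Ivd, which acts after the dehydrogenase on leucine, read 9230, 3346, 8647 and 2274 and differed by -1.69, and its other probe by -2.11. Mccc2, a subunit of the next leucine enzyme, read 267, 173, 446 and 146 and differed by -1.37 ± 0.20. Acadsb, the isoleucine counterpart of Ivd, read 943, 377, 934 and 344 and differed by -1.21 ± 0.20. Below 2-fold came Echs1 at -0.88, Aldh6a1 of the valine branch at -0.81 and Mccc1 at -0.66.

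The route from propionate to succinyl-CoA, where valine and isoleucine carbons enter the citric acid cycle, had all 11 measured genes below the median of all genes, 1 of them 2-fold or more lower, with a relative median of -0.28 (-0.33 for the lean pair). That gene was Pcca, the biotin-carrying subunit of propionyl-CoA carboxylase, at 1617, 1020, 1931 and 650 on the WT and Txnip-null arrays and then the ob/ob arrays with and without Txnip (-1.34 ± 0.20). Mmut, the methylmalonyl-CoA mutase, was at -0.75 and Pccb at -0.59.

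Some mitochondrial carriers were low as well. Slc25a44, the carrier of branched-chain amino acids into mitochondria, read 141, 136, 157 and 24.9, so the ob/ob Txnip-null array alone was low. Its difference was -2.42 ± 0.24 (5.35-fold lower, against -0.18 in the lean pair); 2 of its 8 neighbouring spots were also 2-fold or more lower on that array, and their part in the result was not tested. Slc25a29, a carrier of basic amino acids, read 535, 193, 714 and 155 and differed by -1.97 ± 0.21, and its second probe by -2.07. Of 40 measured carriers 4 were 2-fold or more lower and none higher, and the group as a whole stayed near all genes (relative median -0.08).

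Several genes of other amino acid pathways were low on both arrays without Txnip. Cth, which makes cysteine from cystathionine, read 153, 21.5, 193 and 24.2 on the WT and Txnip-null arrays and then the ob/ob arrays with and without Txnip, a difference of -2.76 ± 0.26 (6.78-fold lower). Kyat3, a kynurenine aminotransferase, read 703, 197, 877 and 171 (-2.13 ± 0.20), and Gcat, of threonine breakdown, 1232, 357, 1303 and 337 (-1.72). In each of these genes the arrays with Txnip lay together and the arrays without it lay together. The proline enzymes Prodh (561, 297, 1105 and 239; -1.97 ± 0.20) and Aldh4a1 (2657, 1216, 1904 and 737; -1.14) act in sequence, and Gnmt, which uses up methyl groups, was at -1.08. Higher genes stood beside them: Cdo1, which oxidises cysteine, read 245, 332, 434 and 891 (1.27 ± 0.20), the glutathione-degrading Chac1 was at 1.26 and Phgdh, the entry to serine synthesis, read 450, 917, 655 and 1412 (1.34 ± 0.20, 3 probes from 1.16 to 1.34).

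As groups these pathways split. The transaminases had 7 of 10 members below the median of all genes, 1 of them 2-fold lower (relative median -0.49). The cysteine, methionine and glutathione enzymes had 12 of 19 below, with 2 past 2-fold each way (-0.16). Amino acid transporters ran the other way by count, with 15 of 24 above and 3 past 2-fold, all higher: Slc7a10 (1.59), the glutamate transporter Slc1a3 (1.48) and Slc36a2 (1.35), with a relative median of 0.11.

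Ketone body genes held a pair of opposite values. Oxct1, the enzyme that lets muscle use ketone bodies, read 50872 in WT and 15867 in Txnip-null muscle, and 39611 and 7735 in ob/ob muscle with and without Txnip. It differed by -2.12 ± 0.20 (4.36-fold lower), and its 3 probes lay between -2.45 and -2.12. Aacs, which activates acetoacetate in the cytosol for lipid synthesis, read 579, 3684, 577 and 4921 and differed by 3.33 ± 0.20. The arrays with Txnip were equal for Aacs and both arrays without it were several-fold above. Across the 8 measured ketone genes, 1 passed 2-fold each way and 4 lay on each side of the median; Bdh1 was an outlier spot on the ob/ob array and has no value by its brightest probe, while a dimmer probe gave -2.06.

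NAD synthesis also held single genes with opposite values. Qprt, the enzyme that makes NAD precursors from tryptophan, read 53.1, 570, 62.9 and 714 on the WT and Txnip-null arrays and then the ob/ob arrays with and without Txnip (3.74 ± 0.21). Haao and Afmid of the same route were at 0.10 and 0.07, and its genes Kmo, Kynu, Tdo2 and Ido1 were not measured. Nmrk2, the muscle kinase of nicotinamide riboside, read 36970, 4279, 8472 and 910 (-2.98 ± 0.20), so it was lower without Txnip on both backgrounds and lowest on the ob/ob Txnip-null array. Nampt, the main salvage enzyme, was at 0.07 and the other riboside kinase Nmrk1 at -0.19. Nnmt, which methylates nicotinamide, read 687, 887, 701 and 1344 (1.17 ± 0.20). Nnt, the transhydrogenase of the inner mitochondrial membrane, read 7619, 8950, 2450 and 4606 (1.14, probes from 0.89). For Nnt the ob/ob array was the low one. The 18 measured genes were even about the median (9 above and 9 below), with 3 higher and 1 lower past 2-fold.

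**Figure D2:**
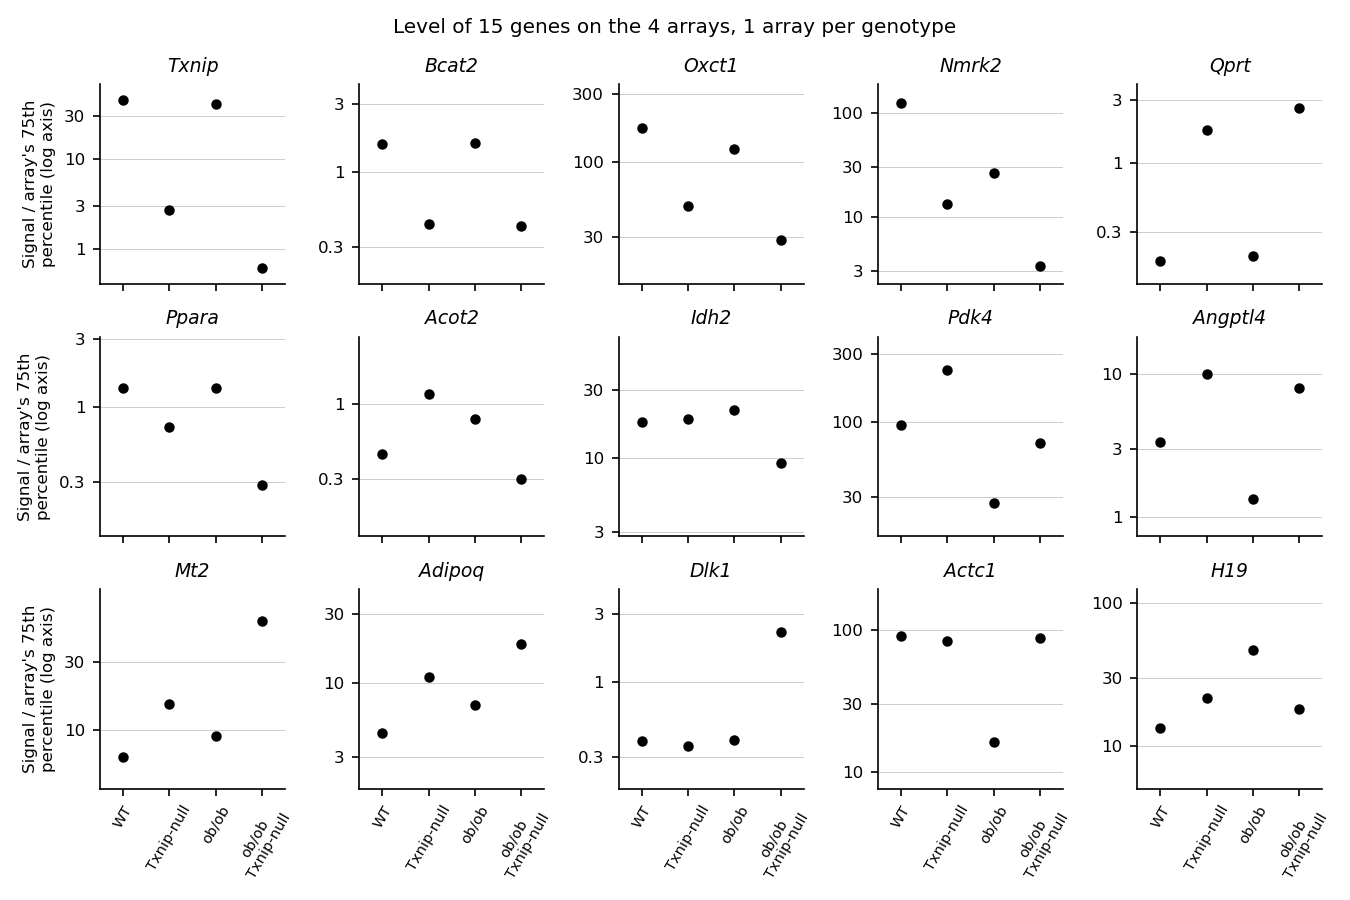
Level of 15 genes on the 4 arrays, 1 array per genotype (processed signal divided by the array's 75th percentile, log axis; each point is 1 array). Bcat2, Oxct1, Qprt and Angptl4 separate the arrays by Txnip, Idh2 and Dlk1 single out the ob/ob Txnip-null array, and Actc1 and H19 single out the ob/ob array.

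Transcripts of fatty acid oxidation lay low as a group in the ob/ob pair and not in the lean pair. Of 36 measured genes of fatty acid uptake and beta-oxidation, 30 lay below the median of all genes, 2 were 2-fold or more lower and none higher, and the relative median was -0.49, against 0.22 for Txnip-null minus WT. Of the 36, 24 lay below the median here and above it in the lean pair, and 1 the reverse. The same count over all genes was not made, so this one has no share to be set against. The difference between the backgrounds was not tested, since each genotype has 1 array.

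The genes of the beta-oxidation spiral show the pattern singly. Acadm, the medium-chain dehydrogenase, read 37737, 41949, 45712 and 21411 on the WT and Txnip-null arrays and then the ob/ob arrays with and without Txnip (-0.86). Hadha, of the trifunctional protein, read 1728, 2562, 2036 and 1115 (-0.63), and Slc25a20, the carnitine carrier, 1495, 1934, 1970 and 907 (-0.88). In each the ob/ob Txnip-null array was the lowest of 4. Of the uptake genes, the fatty acid transporter Slc27a1 read 1487, 2260, 2525 and 1105 (-0.96) and Fabp3, the muscle fatty acid binding protein, 74173, 167386, 92546 and 55474 (-0.50). Cpt1b, the muscle gate for fatty acids into mitochondria, was closer to its partner at -0.33, and Cd36 was at -0.03. Ucp3 (0.60) and Fabp4 (0.76, also a fat-cell gene) were above.

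Acot2, a mitochondrial thioesterase that frees fatty acids from CoA, went opposite ways in the pairs. Its signals were 131 and 375 on the WT and Txnip-null arrays, and 251 and 81.4 on the ob/ob arrays with and without Txnip. The differences were -1.39 ± 0.21 (2.62-fold lower) here and 1.39 in the lean pair. Acot1, its near-identical neighbour, read 127, 1094, 229 and 108 (-0.85 ± 0.21), and probes for the pair may share signal. Acot11 read 182, 114, 312 and 70.8 (-1.91 ± 0.21). Of 10 measured thioesterases 8 lay below the median, 2 of them 2-fold or more, with a relative median of -0.39. Plin5, which coats lipid droplets beside mitochondria, read 4043, 6772, 6675 and 2379 (-1.25 ± 0.20), again lowest on the ob/ob Txnip-null array.

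**Figure D3:**
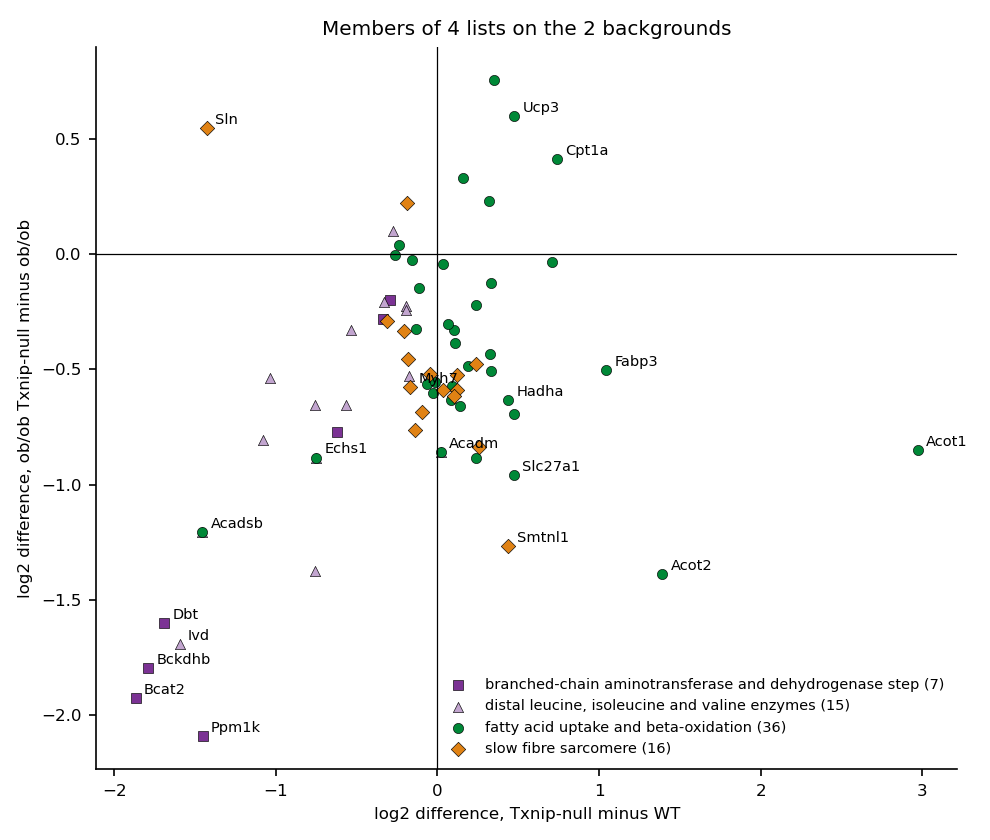
Difference of each member of 4 gene groups in the ob/ob pair (log2, vertical) against its difference in the lean pair (log2, horizontal); each symbol is 1 gene and the group sizes are in the legend. Branched-chain genes such as Bcat2 (-1.93) lie low on both axes. Acadm (-0.86) of the fatty acid list and Smtnl1 (-1.27) of the slow-fibre list lie low on the vertical axis only. Relative to the median of all genes, 24 of 36 fatty acid and 8 of 16 slow-fibre genes did so. On both axes, 6 genes of each of these lists lay below it.

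Several nuclear receptors linked to these genes were low too, and their part in the values above was not tested. Ppara, the fatty acid receptor that switches on beta-oxidation genes, read 399, 232, 438 and 77.4 on the WT and Txnip-null arrays and then the ob/ob arrays with and without Txnip (-2.27 ± 0.07, with -0.91 in the lean pair). Esrrb, an estrogen-related receptor, read 126, 152, 177 and 62.5 (-1.27 ± 0.21), and Ppard, the PPAR most abundant in muscle, was dim at 18.5, 19.6, 30.6 and 13.6 (-0.93 ± 0.37). The coactivator Ppargc1a was at -0.17. Of 20 measured receptors and coactivators 15 lay below the median, 2 of them 2-fold or more, with a relative median of -0.21. The 5 above it included the receptors Rxrg (0.70), Pparg (0.53) and Rxra (0.17), and none passed 2-fold.

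In the citric acid cycle 19 of 23 measured genes lay below the median of all genes, 1 of them 2-fold lower (relative median -0.34, and -0.14 for the lean pair). That gene was Idh2, the mitochondrial NADP-dependent isocitrate dehydrogenase, at 5191, 5933, 6957 and 2488 (-1.25 ± 0.20), low on the ob/ob Txnip-null array only. Sdhb read 33946, 26599, 32518 and 15990 (-0.79), while the synthase Cs was at -0.14. Respiratory chain genes were nearer to all genes: complex I had a relative median of -0.07 over 37 genes and complexes II to V of -0.07 over 43, and none of them passed 2-fold either way. The mitochondrial ribosomal proteins were at -0.06 over 76 genes. Cytosolic ribosomal proteins lay above, with 71 of 75 over the median of all genes and a relative median of 0.27 (-0.10 for the lean pair), and none past 2-fold.

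Slow-fibre genes of the contractile apparatus, whose fibres rely on oxidative metabolism, were low on the ob/ob Txnip-null array. Of 16 measured, 14 lay below the median of all genes with a relative median of -0.58, against 0.00 in the lean pair. Myh7, the slow myosin heavy chain, read 316839, 308333, 213873 and 121937 (-0.58 ± 0.20, 1.49-fold lower), Tnnt1 74531, 79066, 44419 and 26321 (-0.52), and Mb (myoglobin) 181216, 180085, 193931 and 97178 (-0.76). For Myh7 and Tnnt1 the ob/ob array already lay under both lean arrays. Smtnl1, a smoothelin-like protein of muscle, was the list member past 2-fold, at 5672, 8424, 6803 and 2405 (-1.27 ± 0.20). Sln, the calcium pump inhibitor sarcolipin, was above at 0.55.

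Fast-fibre genes lay closer to all genes. Of 18 measured none passed 2-fold and 14 lay above the median, with a relative median of 0.17 (0.02 after quantile normalization and 0.01 after loess). Myh4, the fast myosin heavy chain, read 603454, 604678, 623419 and 593946 (0.16), and Pvalb, the fast-fibre calcium buffer, 134597, 127083, 117761 and 160628 (0.68). The labels do not name the muscle, and in bulk tissue fewer cells of a type and less RNA per cell cannot be told apart, so the slow-fibre values do not say whether fibres or their RNA differed.

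As a group, the genes that steer glucose into the cell were near all genes (relative median -0.09). Of 10 measured glucose transporters and hexokinases none passed 2-fold. Slc2a4, the insulin-responsive transporter, was at -0.02 (48272, 33472, 45101 and 37865 on the WT and Txnip-null arrays and then the ob/ob arrays with and without Txnip). Slc2a3 was at -0.82, Slc2a1 at -0.71 and Hk2 at -0.51. In the lean pair Slc2a3 (-1.61) and Slc2a1 (-1.23) were 2-fold or more lower. Glycolytic enzymes lay above, 16 of 22 over the median with a relative median of 0.26, and 1 past 2-fold each way. The higher gene was Pfkfb3, whose product makes the activator of phosphofructokinase, at 21341, 34984, 16195 and 32925 (1.26 ± 0.20), where both arrays without Txnip exceeded both with it. The lower gene was Ldhb, the heart-type lactate dehydrogenase subunit, at 48704, 53244, 60706 and 23894 (-1.11 ± 0.20), low on the ob/ob Txnip-null array only.

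Pdk4, the kinase that turns off pyruvate dehydrogenase, read 27914, 74243, 8756 and 19557 and differed by 1.39 ± 0.20. It was higher without Txnip on both backgrounds and lower on the ob/ob arrays than on their lean counterparts, so that the ob/ob Txnip-null array stayed under the WT array. The other kinases did not follow it: Pdk2 was at -0.45, Pdk1 at -0.17 and Pdk3 at 0.29. Of 13 measured genes of pyruvate entry, 10 lay below the median of all genes, including the carrier Mpc1 at -0.56 (40371, 26646, 42126 and 24328).

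Among the glycogen genes, Gys2, the liver form of glycogen synthase, read 13, 74.3, 20.9 and 97.9 (2.46 ± 0.26), while Gys1, the muscle form, read 2973, 2799, 3578 and 1597 (-0.93). Different probes cannot be set against each other, so their order of abundance is not known from these signals. The liver phosphorylase Pygl was at 1.29 and the muscle phosphorylase Pygm at -0.04. Pgm2 was at -1.94 ± 0.25, with 3 of its 8 neighbouring spots 2-fold lower as well. The group of 20 was even about the median (relative median -0.01).

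Fatty acid and triglyceride synthesis lay above in 23 of 25 measured genes, with 3 higher and 1 lower past 2-fold and a relative median of 0.17 (0.32 for the lean pair). Fasn, the fatty acid synthase, read 7520, 9531, 12337 and 25041 on the WT and Txnip-null arrays and then the ob/ob arrays with and without Txnip (1.25 ± 0.20, other probe 1.53). Elovl6, which lengthens its product, read 81.9, 130, 235 and 504 (1.34), and Acaca, the carboxylase that feeds it, 88.9, 195, 101 and 242 (1.49, 3 probes from 0.34). Fasn and Elovl6 were highest on the ob/ob Txnip-null array and second on the ob/ob array. Acss1, the mitochondrial acetate-activating enzyme, was the lower gene, at 5442, 5660, 6141 and 2174 (-1.26). Cholesterol synthesis had 11 of 23 genes above the median and none past 2-fold.

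Of 13 measured genes that control lipoprotein lipase, 2 were 2-fold or more higher, and both encode inhibitors. Angptl4, a secreted inhibitor of the lipase, read 976 in WT and 3209 in Txnip-null muscle, and 428 and 2180 in ob/ob muscle with and without Txnip (2.58 ± 0.20). Angptl8, an insulin-responsive relative, was well above background on the ob/ob arrays only, at 33.8 and 93.2 (1.70 ± 0.23). Lpl, the lipase itself, read 20402, 26809, 22122 and 12444 (-0.60). Gpihbp1, which anchors the lipase in capillaries, was at -0.01.

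Of 4 measured metallothioneins, small zinc-binding proteins, Mt1 and Mt2 were high on the ob/ob Txnip-null array, and Mt3 was at 0.0031 and Mt4 at 0.07. Mt2 read 1898, 4848, 2895 and 15839 on the WT and Txnip-null arrays and then the ob/ob arrays with and without Txnip (2.69 ± 0.20), and Mt1 1441, 1781, 1629 and 3523 (1.35 ± 0.06, second probe 2.91). For both genes that array exceeded each of the others by 2-fold or more. The other measured genes of zinc handling stayed within 2-fold, among them the zinc-sensing factor Mtf1 at -0.02 and the exporter Slc30a1 at -0.06.

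The promoters of Mt1 and Mt2, neighbours on chromosome 8, are shown because both genes were high on the same array. They are the 250 bases before the RefSeq start on GRCm38.p6, plus strand, at chr8:94178839-94179088 (Mt1) and chr8:94172368-94172617 (Mt2), with capitals on exact matches on either strand to the metal response cores TGCGCNC and TGCACNC.
Mt1 promoter: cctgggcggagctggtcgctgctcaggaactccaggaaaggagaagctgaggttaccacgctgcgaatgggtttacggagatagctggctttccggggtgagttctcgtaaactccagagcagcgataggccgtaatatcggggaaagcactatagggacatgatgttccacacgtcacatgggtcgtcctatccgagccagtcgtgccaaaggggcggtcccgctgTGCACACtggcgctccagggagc
Mt2 promoter: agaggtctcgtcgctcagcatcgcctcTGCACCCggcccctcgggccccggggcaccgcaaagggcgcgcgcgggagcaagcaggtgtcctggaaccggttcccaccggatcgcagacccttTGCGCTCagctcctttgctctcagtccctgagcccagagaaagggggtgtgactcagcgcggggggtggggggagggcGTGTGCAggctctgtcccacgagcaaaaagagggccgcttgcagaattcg
Mt1 held 1 match, which begins 23 bases before its start, and Mt2 held 3, which begin 223, 128 and 50 bases before. Bases after the annotated start or further upstream were not searched, so these counts hold for the printed windows only. Either core occurred in 21.4% of all RefSeq promoters of this length.

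Mt1 and Mt2 are also on the list of 19 glucocorticoid-responsive genes that were measured, where 6 were 2-fold or more higher and none lower. The others past 2-fold were Angptl4, Pdk4, Ddit4 and Cebpd. Over all genes measured, 1.86% were 2-fold or more higher and 0.815% lower. The list was chosen with earlier results of these data known, so the count is a description and no independent support. Ddit4, an inhibitor of mTOR, read 7668, 12456, 9209 and 32409 (2.05) and the transcription factor Cebpd 5810, 14316, 7465 and 24693 (1.96), both highest on the ob/ob Txnip-null array. Other well-known members stayed within 2-fold by their brightest probe: Tsc22d3 was at 0.36, Per1 at -0.26, Klf15 at -0.57 and Fkbp5 at -0.66, with 2.23 by a dimmer probe. The relative median of the list was 0.18, between -0.01 and 0.34 under the processing alternatives, with 10 genes above the median and 9 below.

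Thioredoxin, the partner of Txnip, and its relatives were near all genes. Of 36 measured thioredoxin and antioxidant genes none passed 2-fold (relative median -0.05): Txn1 was at 0.37, Txn2 at -0.29, Txnrd1 at -0.36 and Hmox1 at -0.00. Heat shock genes had 21 of 31 below the median and none past 2-fold, with Hspa1a, an inducible chaperone, at 2909, 3388, 2045 and 964 on the WT and Txnip-null arrays and then the ob/ob arrays with and without Txnip (-0.85, 4 probes from -1.64 to -0.83).

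Immediate early transcription factors had 21 of 26 below the median and 3 past 2-fold, all lower (relative median -0.27, and 0.13 for the lean pair). Atf3 read 850, 714, 876 and 235 (-1.66 ± 0.20), Fos 1123, 570, 254 and 92.0 (-1.23 ± 0.07) and Nr4a2 378, 648, 249 and 92.9 (-1.19). Each was lowest on the ob/ob Txnip-null array. Among targets of bone morphogenetic protein signals, Id3 read 690, 1139, 1366 and 576 (-1.01) and Id1 997, 1836, 2191 and 935 (-0.99). The lists of interferon-stimulated genes (28 measured, relative median 0.03) and of atrophy and autophagy genes (31, -0.10) held no gene past 2-fold. The list of insulin, AMPK and mTOR genes held none apart from Ddit4. Zbp1 (1.48) and Ifit3b (-1.32), which the interferon list leaves out, did pass 2-fold. Proteasome subunits had 36 of 40 above the median, all within 2-fold (0.16).

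Genes of fat cells were high on the ob/ob Txnip-null array. Of 13 measured adipocyte markers 8 were 2-fold or more higher and 12 lay above the median of all genes, with a relative median of 1.26 (0.86 for the lean pair). Adipoq (adiponectin) read 1291, 3496, 2240 and 5041 on the WT and Txnip-null arrays and then the ob/ob arrays with and without Txnip (1.40), Cfd (adipsin) 15411, 34430, 1627 and 3382 (1.29) and Lep 36.4, 110, 246 and 570 (1.44 ± 0.06). Each was higher without Txnip on both backgrounds, while the ob mutation was accompanied by high Lep and low Cfd. Plin1, which coats fat-cell lipid droplets, was at 1.30, Cidec at 1.29, Retn (resistin) at 1.36 with 2 probes and Fabp4 at 0.76.

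The summed signal of the 13 adipocyte markers, in units of each array's 75th percentile, was 473, 536, 367 and 409. Car3, which muscle fibres also express, made up much of that sum and was at -0.53; without it the 12 others summed to 207, 314, 136 and 249.96. Adrb3 was not well above background on any array, and neither were the brown-fat genes Ucp1 and Elovl3. Fasn, Elovl6, Angptl4, Cebpd, Cdo1, Nnmt, Slc7a10, Mest and the metallothioneins are also expressed by fat cells, and the part of the adipocyte markers in their values was not tested.

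Connective tissue genes were above by less. All 16 fibroblast markers lay above the median of all genes, 2 of them past 2-fold, with a relative median of 0.36 and summed signals of 936, 1125, 1080 and 1377. Collagens lay above in 29 of 33 genes, 3 of them past 2-fold (0.33). Col1a1 read 6916, 20960, 17381 and 29608 (1.002 ± 0.06, 3 probes up to 1.17) and Col1a2 20918, 43475, 27679 and 52684 (1.16), each higher without Txnip on both backgrounds. Lox, which crosslinks collagen, read 109, 167, 214 and 392 (1.11). Tendon markers were 11 of 11 above the median in the ob/ob pair, but the WT array was the one that stood apart, with summed signals of 21.6, 67.8, 95.1 and 127 over 10 markers; Tnmd, the tendon membrane protein tenomodulin, read 32.6, 454, 760 and 1117 (0.79). The part of tendon in the collagen values was not tested.

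All 18 macrophage markers lay above the median of all genes, none past 2-fold, with a relative median of 0.31 and summed signals of 76.7, 102, 75.8 and 90.1 on the WT and Txnip-null arrays and then the ob/ob arrays with and without Txnip. The chemokine Ccl2, which attracts monocytes, read 75.8, 126, 105 and 233 (1.39 ± 0.07). Schwann cell markers had 11 of 13 above (0.55; sums 18.8, 39.8, 31.0 and 46.0), with Sox10 (0.00) and Gjb1 below; Gjb1, which liver also expresses, read 16.2, 18.99, 81.6 and 15.5, where the ob/ob array alone was high. Endothelial markers had 14 of 19 below (-0.22, against 0.34 in the lean pair), with sums of 151, 147, 155 and 134. Sox18 led them at 235, 392, 610 and 267 (-0.96). The list also counts Vegfa, a growth factor that acts on endothelial cells rather than marking them, at 1660, 2434, 2258 and 1172 (-0.71). Muscle fibre markers were even, 8 above and 4 below (0.10; sums 7841, 6792, 6940 and 7488 over the 11 with a value on every array).

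**Figure D4:**
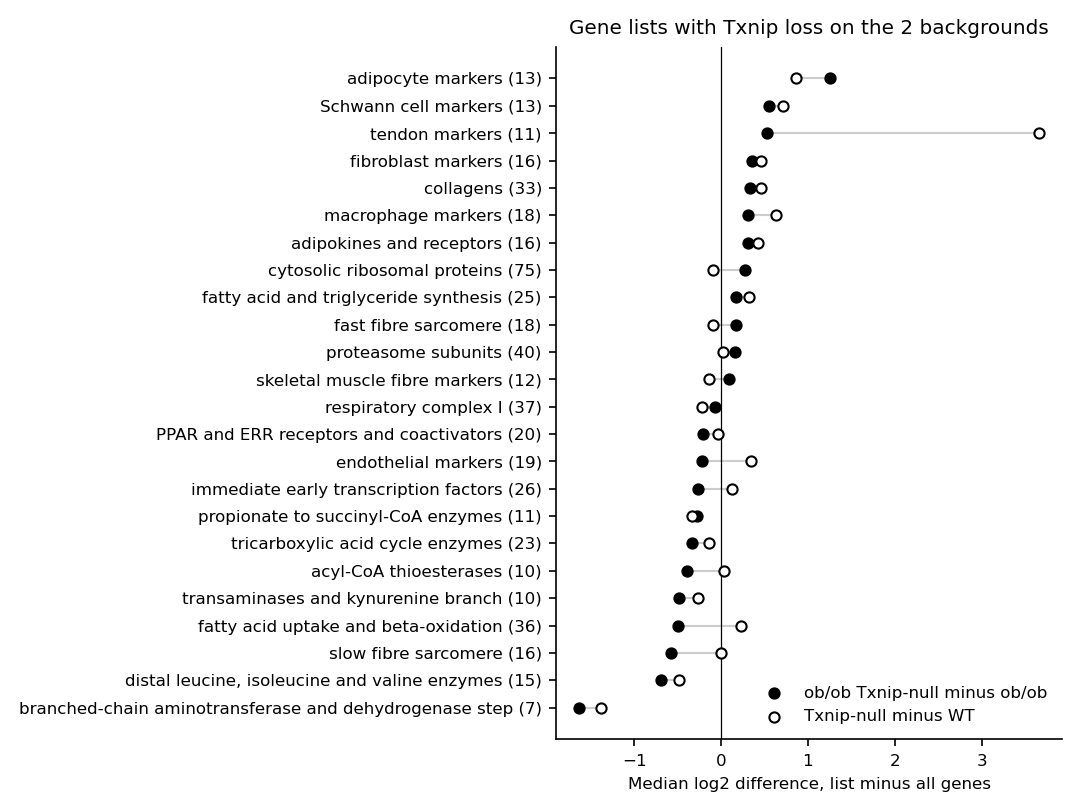
Median log2 difference of each gene group minus the median of all genes, for ob/ob Txnip-null minus ob/ob (filled) and Txnip-null minus WT (open), with the number of genes measured in the ob/ob pair in brackets. The branched-chain group lies lowest on both backgrounds (-1.63 and -1.38). Genes of fatty acid uptake and oxidation (-0.49 and 0.22) and slow-fibre genes (-0.58 and 0.00) lie low in the ob/ob pair only. Tendon markers (0.53 and 3.66) differ most between the pairs.

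Several single genes of growth and muscle identity stood apart. Dlk1, an imprinted inhibitor of fat-cell formation, read 112, 114, 126 and 615 on the WT and Txnip-null arrays and then the ob/ob arrays with and without Txnip (2.51 ± 0.21, second probe 2.24), so the last array alone was high. Mest, another imprinted gene, read 249.8, 368, 503 and 1182 (1.46), and H19, the imprinted non-coding RNA next to Igf2, 3918, 6963, 15150 and 4973 (-1.37 ± 0.20), where the ob/ob array alone was high. Igf2 read 1243, 992, 2628 and 1771 (-0.34 ± 0.06). Of 16 measured imprinted genes 11 lay above the median, with 2 higher and 1 lower past 2-fold.

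Cish, an inhibitor of growth hormone signals that STAT5 switches on, read 3453, 6482, 198 and 880 (2.39 ± 0.21), and Bcl6, which STAT5 switches off, 11776, 11955, 20557 and 7489 (-1.22). On the ob/ob array Cish lay below the lean arrays and Bcl6 above them. Socs2, also a STAT5 target, read 488, 754, 178 and 247 (0.71), and Igf1 397, 655, 342 and 448 (0.62). Actc1, the cardiac actin of developing muscle, read 26420, 26492, 5255 and 23959 (2.42 ± 0.20), low on the ob/ob array alone. Myod1, the myogenic factor, read 226, 117, 290 and 65.1 (-1.92 ± 0.07), and its relatives Myog (-0.20) and Myf6 (-0.21) did not pass 2-fold. Fndc5, the precursor of irisin, read 11287, 14143, 15094 and 6133 (-1.07 ± 0.20).

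Among channels, Abcc8, the sulfonylurea receptor of the ATP-sensitive potassium channel, read 163, 640, 634 and 1736 (1.69 ± 0.20), while its muscle counterpart Abcc9 was at -0.11 and the pore Kcnj11 at -0.20. Cacnb4, a calcium channel beta subunit, read 8.38, 197, 17 and 349 (4.59 ± 0.28, second probe 3.54), bright on both arrays without Txnip only; the skeletal beta subunit Cacnb1 was at -0.01. Ighm, the immunoglobulin M heavy chain of B cells, read 11231, 18313, 735 and 3090 (2.31). Another heavy-chain entry, Igh, went the other way (-1.80, against 0.56 in the lean pair) and was low on the ob/ob Txnip-null array alone. The lymphocyte list was thin, with 6 of 16 genes well above background on all 4 arrays, and the B-cell genes Cd79a and Ms4a1 were on none.

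Where a gene had more than 1 probe, the probes were compared as a check on single spots. Of 5219 genes with at least 2 different probes well above background on both arrays, 19 had every probe 2-fold or more higher and 12 every probe 2-fold or more lower, 0.364% and 0.23%. Of the 49 among them whose brightest probe was 2-fold higher, 45 had every probe above 0, and of the 28 lower genes 24 had every probe below 0. The lower set held Oxct1, Ppm1k, Ivd, Bckdhb, Slc25a29, Aldh4a1, Fndc5 and H19, with the pyrimidine nucleotide carrier Slc25a33 (-1.57 and -1.28) and the scaffold Nedd9. Mras, a relative of Ras, had 4 probes from 1.06 to 1.5, and Itpr1, a calcium release channel, 2 from 1.25 to 1.41. Disagreement was seen for Rnd1 (-2.29 by its brightest probe and 0.13 by another) and Thpo (-1.67 and 0.18).

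**Figure D5:**
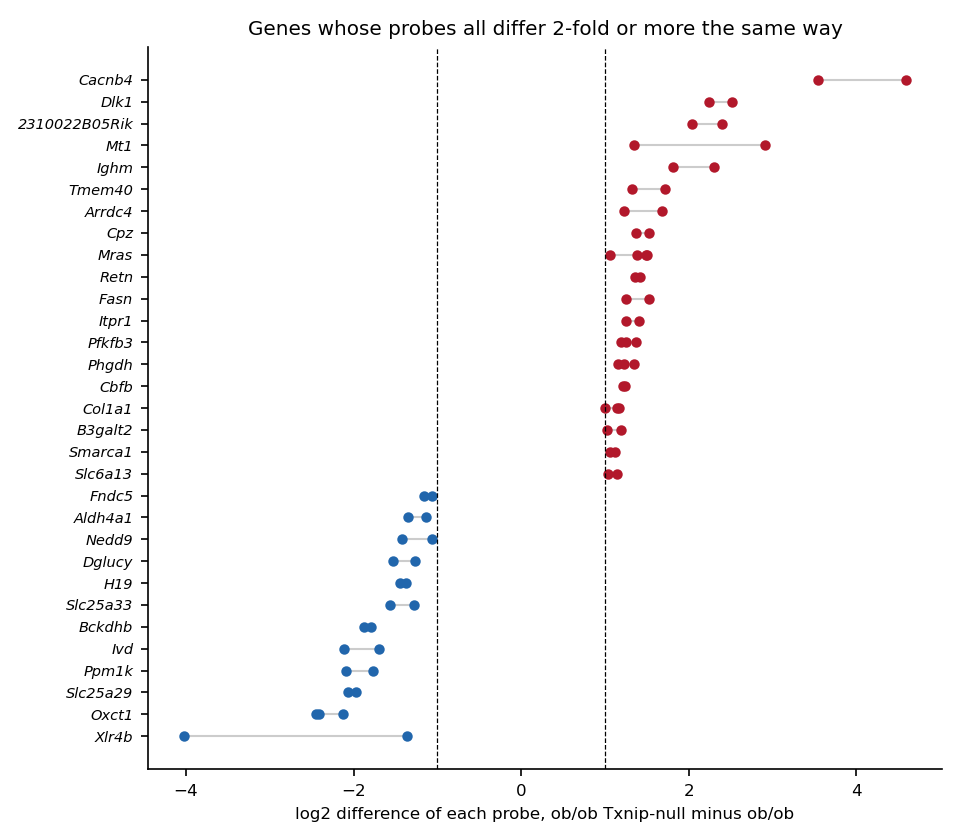
Difference of each probe between the ob/ob Txnip-null and ob/ob arrays (log2) for the 31 genes whose probes all differed 2-fold or more the same way; each point is 1 probe and dashed lines mark 2-fold. The 3 probes of Oxct1 lie between -2.45 and -2.12, and those of Dlk1 between 2.24 and 2.51.

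A further 705 genes were well above background on the ob/ob Txnip-null array only and 484 on the ob/ob array only, where the difference has a bound: the bright signal against the lowest signal called well above background on the dim array, or the dim probe's own signal if higher. The largest bounds upward were Olfr782 (at least 29.2-fold), Cartpt (9.91), Apba1 (8.78), Ptchd4 (8.26) and Aqp9 (8.18), and downward Tsen34 (283), Samt1b (14.6), Olfr960 (10.8), Olfr1258 (9.496) and Slc7a4 (6.54). Tsen34, a tRNA splicing subunit, read 2662, 3234, 3045 and 3.91 on the WT and Txnip-null arrays and then the ob/ob arrays with and without Txnip. Of these genes, Olfr782, Cartpt, Ptchd4, Aqp9, Tsen34 and Slc7a4 had 2 or more neighbouring spots that differed the same way. So did 44 of the 413 genes past 2-fold, among them Pard6a, Septin10, Kank4 and Utf1, and the part of such patches was not tested.

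The lean pair, which shares no array with the ob/ob pair, had 264 genes 2-fold or more higher without Txnip (1.73% of 15220) and 134 lower (0.88%). Of the 242 higher genes of the ob/ob pair that were measured in both pairs, 55 were 2-fold higher in the lean pair as well, which is 22.7% of these genes and 21.7% of the 253 lean ones. Another 51 were 1.5- to 2-fold higher there, 129 lay within 1.5-fold, 3 were 1.5- to 2-fold lower and 4 were 2-fold lower. Of the 121 lower genes 31 were 2-fold lower in the lean pair (25.6%, and 27.7% of the 112 lean ones), 71 lay within 1.5-fold and 2 were 2-fold higher.

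Over all 4 arrays the called genes fell into kinds. In 20 higher and 21 lower genes both arrays without Txnip lay 2-fold or more from both arrays with it. The lower ones included the amino acid and ketone genes Bcat2, Bckdhb, Dbt, Ppm1k, Ivd, Acadsb, Oxct1, Prodh, Gcat, Cth and Kyat3, and the higher ones included Qprt, Aacs, Angptl4, Gys2, Ifi30 (871 against 220 in lean and 1053 against 317 in ob/ob muscle) and the cell division genes Birc5 and Cenpe. The ob/ob Txnip-null array alone was 2-fold or more above the other 3 in 64 genes, which included Mt1, Mt2, Dlk1, Ddit4, Fasn, Elovl6, Cdo1, Plin1 and Ccl2, and below them in 23, which included Ppara, Acss1, Smtnl1, Pank1, Atf3 and Nr4a2. Pank1, which starts coenzyme A synthesis, read 222.5, 229.6, 239.6 and 74.2 (-1.46 ± 0.21).

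In 20 lower and 30 higher genes of the comparison it was the ob/ob array that stood 2-fold or more from the other 3. The first set held H19, Otud1, Gjb1 and Utf1, and the second Actc1, Cish, Pdk4, Cfd, Chac1, Nnt, Slc1a3 and Gadd45g, a growth arrest gene that read 55113, 70161, 27896 and 76097 (1.68). Of these, Pdk4 (1.28), Chac1 (1.15) and Cfd (1.03) were also 2-fold or more higher without Txnip in the lean pair. The remaining 185 of the 363 called genes measured on every array fell into none of these kinds.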

How the data were processed

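Agilent Feature Extraction 9.5.3.1 produced the spot intensity values, per the file headers, and the processed signal that the authors deposited is background-subtracted and spatially detrended, without scaling between arrays. The authors also deposited a table of log2 values; its making is not described in the sources used here. Over 22627 probes its difference between the compared arrays lay within 0.01 of that of the scanner signals, apart from a constant, for 99.872% (r 0.99997 across probes).

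Here log2 processed signals were scaled by subtracting the 75th percentile of an array's non-control spots, outlier spots (59 for ob/ob, 110 for ob/ob Txnip-null) were dropped, and replicate spots averaged. Each gene took the values of its brightest probe over the 4 arrays and was called at a log2 difference of 1 (2-fold). Probes were named through the GRCm38.p6 RefSeq table (24375 by accession, 6301 by symbol, 2426 by synonym) or kept the file's name (8072). With 1 array per genotype there is no test, and array number limits the precision. Processing ran in Python 3.11.15 (numpy 2.4.6, pandas 2.3.3, statsmodels 0.14.6 for loess, matplotlib 3.10.9), with normexp from limma 3.58.1 in R 4.3.3 as an alternative, and was tested on simulated data.

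The genes and lists were chosen with earlier results of these data known. Genes named were Txnip and Lep, the 15 largest differences each way that also passed 2-fold under quantile and normexp processing, the 12 each way with the largest differences by agreeing probes, the 5 largest bounds each way, list members past 2-fold (up to 8) and list anchors, and up to 8 genes each way per 4-array pattern. Clone and predicted names were passed over. Other genes named, within 2-fold or near the threshold, were chosen after their values were seen. A result for 1 gene is not reported here.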

Additional observations from a re-analysis of the deposited data

Results flagged for a closer look

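Besides Acot2 (-1.39 in the ob/ob pair and 1.39 in the lean pair), 5 genes differed 2-fold or more in opposite directions with Txnip loss on the ob/ob and lean backgrounds, and the difference between the backgrounds was not tested. Ch25h, which makes 25-hydroxycholesterol, read 17.9, 42.6, 33.3 and 13.1 on the WT and Txnip-null arrays and then the ob/ob arrays with and without Txnip, with differences of -1.11 in the ob/ob pair and 1.12 in the lean pair. The other 4 were higher without Txnip in ob/ob muscle and lower in lean muscle. Kl, the ageing-related co-receptor klotho, read 44.3, 21.8, 12.3 and 45.9 (2.14 and -1.15), and Htra4, a serine protease, 242, 108, 119.9 and 204 (1.0 and -1.29). Wfdc21 read 59.6, 30.4, 43.0 and 98.1 (1.43 and -1.10), and BC006965 122, 18.6, 281 and 1051 (2.14 and -2.84). None of these 6 genes had 2 or more neighbouring spots that differed the same way.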

How the results depend on the processing

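No paired analysis was possible because each genotype has 1 array and the labels carry no replicate numbers, and leaving out an array would leave no comparison. Against 287 higher and 126 lower genes, spike-in scaling gave 80 and 845, normexp background correction 101 and 55, genes with a mean signal of 100 or more 136 and 71, no filter on dim probes 1372 and 746, and genes with 2 or more agreeing probes 19 and 12. Counts stayed within 1.5 times of these under quantile normalization (277 and 146), loess (259 and 146), the median of a gene's probes (275 and 127), outlier spots kept (288 and 143), the authors' deposited table (292 and 125) and the percentile over probes well above background (263 and 138). The percentile over probes (296 and 125) and leaving out genes with neighbouring spots apart (258 and 111) were added after seeing the data. By the probe nearest to no change, 3 named genes changed side: Rnd1 to 0.13, Ryr3 to -0.0518 and Thpo to 0.18. Of 130 named genes past 2-fold, 90 stayed past it under spike-in scaling, 92 under normexp, 125 under quantile and 123 under loess. Some of these genes were named because they passed 2-fold under quantile and normexp processing, so the counts for both were partly fixed in advance. Of all called genes, 101 of the 287 higher and 53 of the 126 lower stayed past 2-fold under normexp. Relative list medians that changed side under an alternative were those of Hox genes (-0.11), glucocorticoid-responsive genes (0.18), lipid droplet genes (0.17) and lipoprotein lipase control (0.23). Low signal limits the counts, since 151 of the 287 higher and 55 of the 126 lower genes had a mean signal under 100.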
